A study of Homo sapiens with 12 samples.

Results

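Panc1, a line established from a human pancreatic ductal carcinoma, was compared with HT29, a line established from a human colorectal adenocarcinoma. The comparison used the 2 Panc1 arrays (numbered 1 and 4) and the 2 HT29 arrays (numbered 2 and 4) whose titles carry the word DMSO, the solvent commonly used as a vehicle, out of 12 arrays of 8 tumour lines. No genotype, dose or time is given, and all 4 arrays share the solvent. The design text calls every line of the series pancreatic, although HT29 is catalogued as colorectal. Each group is 1 established line, so the differences are those between 2 cell lines and not between 2 tumour types. Every array set Cy5-labelled RNA of a line against the same Cy3-labelled whole human reference RNA. A value is the deposited log2 ratio averaged over the features of a gene, 18334 genes in all. The direction of the ratio is not stated and was assumed to be line over reference, the likely one, and with the ratio turned every higher would read lower. A difference is Panc1 minus HT29 on the log2 scale. A gene was called where limma gave a Benjamini-Hochberg adjusted p under 0.05. The labels name no separate cultures, so the p-values cover only the spread seen between arrays, possibly a technical one.

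The lining of the gut is made of polarised cells that secrete mucins and antimicrobial proteins, take up nutrients and conjugate foreign compounds, under transcription factors of the FOXA, GATA and KLF families. The ducts of the pancreas arise from the same germ layer and share part of that programme. Panc1 is known as a poorly differentiated line, and HT29 as one that keeps the capacity to form absorptive and mucus-secreting cells.

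The marker lists separated the lines in part as labelled. Of 7 measured markers of colon epithelium, 4 were lower in Panc1 and none higher, and the mean of the list was 2.70 and 2.08 on the HT29 arrays against 0.14 and 0.23 on the Panc1 arrays. KRT20, an intermediate filament gene of mature colonocytes, differed by -4.74 and VIL1, which bundles the actin of microvilli, by -3.90. CDX2, a homeobox regulator of intestinal identity, did not separate the lines. It stood at 0.93 and 1.12 in Panc1 and at 1.33 and 1.09 in HT29, a difference of -0.19 (limma, adjusted p = 0.564). The duct markers went against the label, because 4 of 7 were lower in Panc1 and 1 higher. Their mean was 0.0955 and 0.0128 on the Panc1 arrays, with members from -1.64 to 2.90, and 1.38 and 1.01 on the HT29 arrays. CFTR, the chloride channel of duct cells, differed by -5.0 over 11 features that ran from -6.06 to 0.07, and SOX9, a duct and progenitor regulator, was higher by 1.25. Of 7 acinar and islet markers 1 was called lower, of 9 blood markers none was called, and of 7 endothelial markers 1 was called higher. Fibroblast markers had a mean from -3.37 to -2.36 over the 4 arrays, with 3 of 7 higher in Panc1. Arrays of the same line correlated across genes at 0.941 in Panc1 and 0.924 in HT29, and arrays of different lines at 0.370 to 0.424.

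Differences between the lines were wide. Of the 18334 genes, 6831 were called, or 37.3%, of which 3925 were higher in Panc1 (21.4%) and 2906 lower (15.9%). In every one of them both Panc1 arrays lay beyond both HT29 arrays. Over all genes both Panc1 arrays lay above both HT29 arrays in 40.5% and below in 32.5%, and the median difference was 0.07, so these shares are the background for every list below. A difference of at least 2 was reached by 1715 called genes and of at least 4 by 336, of which 223 were higher and 113 lower. With 2 arrays against 2 an exact permutation test of a single gene cannot go below p = 0.3333 (two-sided), and genes are therefore read from the fit across all genes. Without Panc1 array 1 the fit called 4135 genes and without Panc1 array 4 it called 4495. Of these, 4057 and 4395 were among the 6831 with the same direction.

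Coagulation, epithelial, mesenchymal and Y-linked genes and XIST were left out of the members described first. Those members are the 25 highest and the 25 lowest called differences where all features of the gene differed in the same direction. The former were all at 5.86 or more and the latter all at -5.66 or less, and each of the 50 was called in every alternative fit. Panc1 had the highest level of the 9 groups of arrays in 23 of the 25 higher genes, and HT29 the lowest in 12. Among all called higher genes those shares were 50.4% and 24.3%. Of the 25 lower genes, HT29 was the highest group in 14 and Panc1 the lowest in 5. Among all called lower genes those shares were 28.9% and 39.7%. The 50 genes were picked for the size of this difference, so extreme ranks of either line are partly built in. A single array feature read 39 of the 50.

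**Figure D1:**
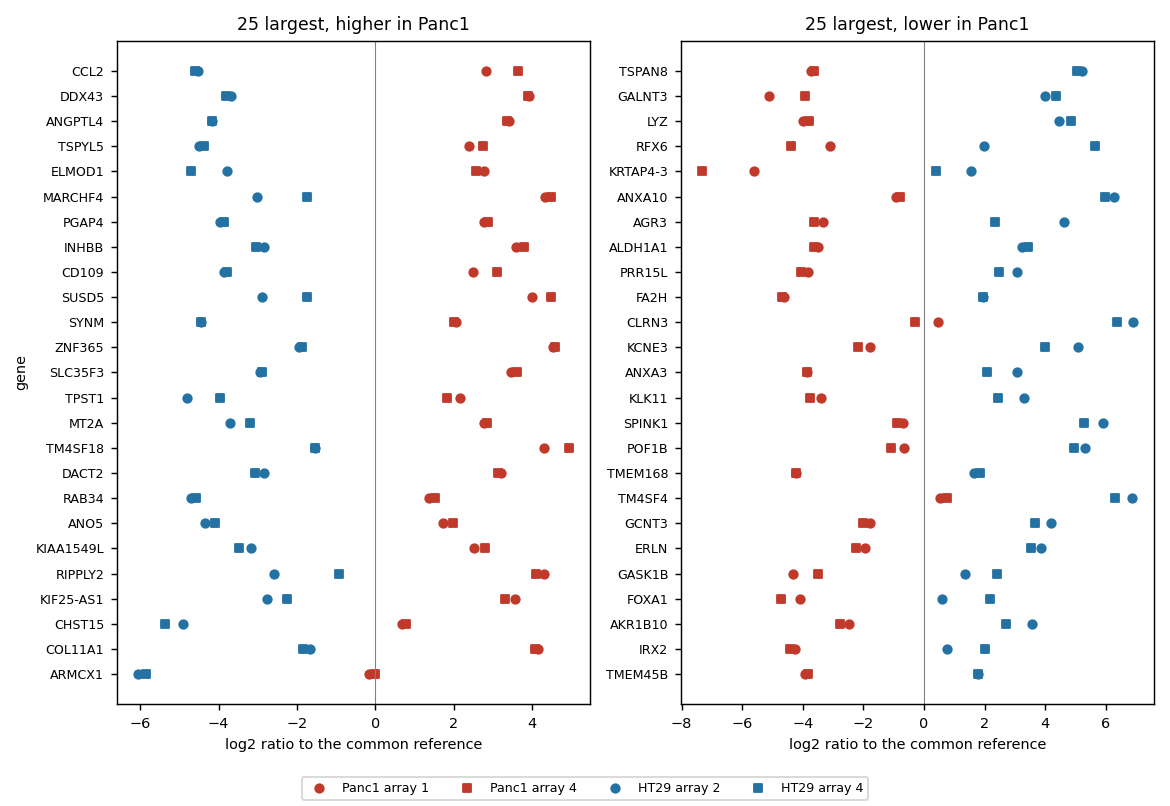
Log2 ratio to the common reference (horizontal axis) of the 25 genes with the highest and the 25 with the lowest difference between Panc1 and HT29 (vertical axis, ordered by size), each point 1 array, red for Panc1 and blue for HT29. The arrays of the lines do not overlap for any gene, and the arrays of 1 line lie close together except for a few genes such as RFX6, AGR3 and KRTAP4-3.

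The 25 genes higher in Panc1 included secreted factors, matrix genes and enzymes that modify secreted proteins. CCL2, a chemokine that attracts monocytes, stood at 2.81 and 3.62 on the Panc1 arrays and at -4.51 and -4.61 on the HT29 arrays. Both Panc1 arrays were above the reference and both HT29 arrays far below it, a difference of 7.78 (SE 0.298, limma, adjusted p = 2.6e-06), and the 8 arrays of other lines lay between -4.87 and -3.43. ANGPTL4, a secreted inhibitor of lipoprotein lipase, stood at 3.40 and 3.36 in Panc1 and at -4.16 on both HT29 arrays. The difference was 7.54 (SE 0.205, limma, adjusted p = 1.06e-06). INHBB, the beta B subunit of activin and inhibin, stood at 3.60 and 3.79 against -2.85 and -3.06, a difference of 6.65. The arrays of each line lay close together for that gene. COL11A1, a fibrillar collagen chain, was higher by 5.87 and CHST15, a sulfotransferase of chondroitin sulfate chains, also by 5.87. TPST1, which sulfates tyrosines of secreted proteins in the Golgi, was higher by 6.37. CD109, a surface protein that binds TGF-beta, was higher by 6.61, with values of 2.48 and 3.10 in Panc1.

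The other genes of that group have varied roles. DDX43, a helicase gene normally expressed in testis, stood at 3.92 and 3.89 in Panc1 and at -3.69 and -3.81 in HT29. The difference was 7.65 (SE 0.208, limma, adjusted p = 1.06e-06), and among the other lines only Capan2, at 3.01, was above the reference. TSPYL5, a member of the testis-specific protein-like family, was higher by 7.0, and the 8 arrays of other lines all lay at or below -3.88. ELMOD1, an activator of ARF-type GTPases, differed by 6.91 and MARCHF4, a membrane-bound ubiquitin ligase, by 6.79 (SE 0.907). Their HT29 arrays spread more than the Panc1 arrays, from -4.69 to -3.79 and from -3.03 to -1.75. PGAP4, a Golgi enzyme of GPI anchors, was higher by 6.72 and SYNM, an intermediate filament protein of muscle, by 6.47. RAB34, a small GTPase of vesicle traffic and cilia, differed by 6.08 and DACT2, a regulator of Wnt and TGF-beta signals, by 6.13. RIPPLY2, a repressor that acts in somite formation, was higher by 5.95, with HT29 at -2.58 and -0.94. SLC35F3, a transporter related to nucleotide sugar carriers, was higher by 6.45 and ANO5, of the anoctamin family, by 6.07. ZNF365 differed by 6.46, SUSD5 by 6.56, TM4SF18 by 6.15 and KIAA1549L by 5.97. The antisense RNA KIF25-AS1 was higher by 5.94, although the strand its feature reads is not known here. ARMCX1, an armadillo-repeat protein of mitochondria, differed by 5.86 while staying at the reference level in Panc1, at -0.17 and -0.01.

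The 25 lower genes included several known from secretory and absorptive gut epithelium. TSPAN8, a tetraspanin of gut cell membranes, stood at -3.73 and -3.62 in Panc1 and at 5.21 and 5.06 in HT29. The Panc1 arrays were far below the reference and the HT29 arrays far above it, a difference of -8.82 (SE 0.244, limma, adjusted p = 1.06e-06). GALNT3, an enzyme that starts O-linked sugar chains, stood at -5.10 and -3.93 against 3.98 and 4.36, a difference of -8.69 (SE 0.402). LYZ, the antibacterial enzyme lysozyme made by Paneth cells, stood at -4.0 and -3.80 against 4.46 and 4.84. Its difference was -8.55 (SE 0.253, limma, adjusted p = 1.46e-06), again without overlap. In other lines TSPAN8 stood at 4.11 in HPAC and 5.94 in HPAFII, but at -4.73 in Capan2. GALNT3 stood at 3.98 in Capan2, 5.32 in HPAC and 3.99 in HPAFII. LYZ stood at 4.06 in HPAFII, 0.23 in HPAC and -2.53 in Capan2. HCT-116 and SW620, also catalogued as colorectal, were at -3.62 and -1.38 for TSPAN8, 1.72 and -2.24 for GALNT3, and -4.105 and -3.93 for LYZ. All MiaPaca2 arrays lay at or below -3.62 for each. AGR3, a relative of the disulfide isomerases of mucus cells, differed by -6.97, and SPINK1, a trypsin inhibitor secreted with digestive juices, by -6.39. KLK11, a secreted serine protease of the kallikrein family, differed by -6.45. GCNT3, which branches O-linked chains, differed by -5.83. FA2H, which hydroxylates the fatty acids of sphingolipids, differed by -6.61, with HT29 at 1.96 and 1.95.

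Among the regulators in that group, RFX6, a transcription factor of gut and islet endocrine cells, had values of -3.09 and -4.38 in Panc1 and 1.98 and 5.64 in HT29. Its difference of -7.55 had an SE of 1.02, wider than for most of the group (limma, adjusted p = 0.00073). FOXA1, a pioneer factor of endoderm, stood at -4.09 and -4.71 in Panc1 and at 0.58 and 2.17 in HT29, a difference of -5.78. The homeobox gene IRX2 differed by -5.72 and ALDH1A1, which makes retinoic acid from retinal, by -6.91. ANXA10, a calcium-dependent membrane binder of the annexin family, differed by -6.98 and ANXA3 by -6.45. HT29 stood high on ANXA10, at 6.28 and 5.96, while Panc1 was closer to the reference at -0.92 and -0.81. KCNE3, a channel subunit that steers potassium flow in the crypts, differed by -6.52. CLRN3, a membrane protein of the clarin family, differed by -6.54, TM4SF4 by -5.93 and POF1B, an actin-binding junction protein, by -6.02. KRTAP4-3, a hair keratin-associated gene read by 1 feature, differed by -7.43 with an SE of 1.15. Its Panc1 arrays spread widely, at -5.62 and -7.31. The remaining members were PRR15L at -6.72, TMEM168 at -5.97, ERLN at -5.80, GASK1B at -5.78, AKR1B10 at -5.76 and TMEM45B at -5.66.

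Metallothioneins are small cysteine-rich proteins that bind zinc, copper and cadmium. The transcription factor MTF1 is known to raise their genes when free zinc rises, through metal response elements in their promoters, and glucocorticoids raise several of them too. Of 11 measured members, 9 were higher in Panc1 and none lower, with a median difference of 4.26, and the counts were the same in every alternative fit. MT2A stood at 2.76 and 2.85 on the Panc1 arrays and at -3.71 and -3.20 on the HT29 arrays. The difference was 6.26 (SE 0.266, limma, adjusted p = 3.39e-06). MT1X stood at 2.16 and 2.13 against -2.23 and -2.16, a difference of 4.34 (SE 0.21). MT1B, MT1G, MT1H and MT1L differed by 4.70, 4.36, 4.30 and 4.26. Members of this family are near-identical in sequence, and features for one may read another, so these values are not independent. MT1E, MT1F and MT1M moved less, by 2.10, 1.88 and 1.16. MT1F was level with the reference in Panc1, at 0.03 and -0.18. The brain member MT3, at -0.39, and the epithelial member MT4, at -0.16, did not pass the test (limma, adjusted p = 0.279 and 0.608). Among the other lines MT2A was above the reference in all 3 MiaPaca2 arrays, from 1.26 to 2.13, and lowest in HPAFII at -2.52.

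Promoter windows from RefSeq on GRCh38.p14, 250 bases before to 50 after the start, were at hand for 5 of the 11 genes. MT2A (chr16:56608334-56608633, plus strand) and MT1X (chr16:56682220-56682519, plus strand) are shown because both were called far apart between the lines, with capitals on the core of the metal response element (TGCACNC or TGCGCNC, found on both strands and able to overlap).
MT2A: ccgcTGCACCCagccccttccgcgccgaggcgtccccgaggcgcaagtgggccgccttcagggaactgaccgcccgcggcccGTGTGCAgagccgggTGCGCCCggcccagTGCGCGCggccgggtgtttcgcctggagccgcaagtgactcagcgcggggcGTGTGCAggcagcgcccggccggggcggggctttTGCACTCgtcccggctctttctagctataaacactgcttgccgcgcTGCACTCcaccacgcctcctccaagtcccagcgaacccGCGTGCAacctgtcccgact
MT1X: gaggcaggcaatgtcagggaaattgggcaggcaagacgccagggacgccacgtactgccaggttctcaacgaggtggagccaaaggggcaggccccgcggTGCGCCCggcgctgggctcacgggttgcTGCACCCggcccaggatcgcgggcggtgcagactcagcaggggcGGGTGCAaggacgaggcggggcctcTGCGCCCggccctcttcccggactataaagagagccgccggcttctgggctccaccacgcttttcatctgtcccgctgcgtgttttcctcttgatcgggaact
The MT2A window held 8 such cores and the MT1X window 4. All 5 windows held at least 3, against 2.3% of 35116 RefSeq promoter windows of that length. MT4, which was not called, also held 3, as did MT1B. A match is a run of letters, and binding was not measured.

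**Figure D2:**
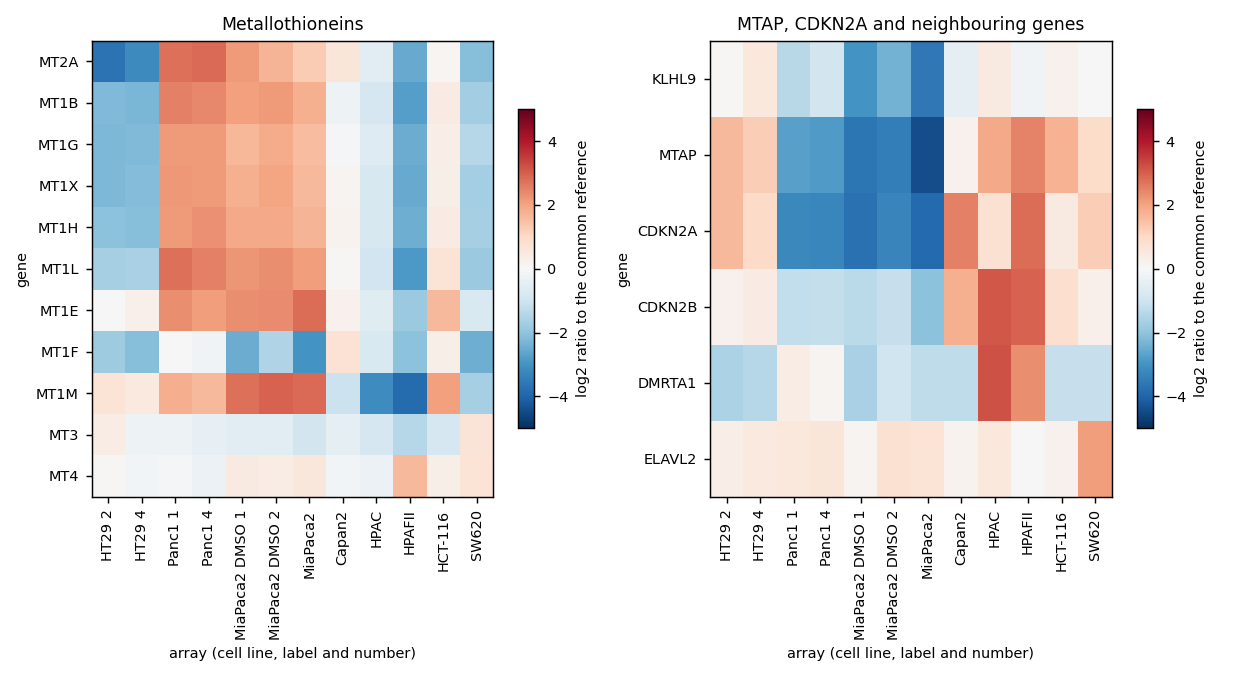
Log2 ratio to the common reference (colour scale) in all 12 arrays (columns) for the metallothionein genes (left) and for MTAP, CDKN2A and genes next to them on chromosome 9 (right). The Panc1 columns are red where the HT29 columns are blue for MT2A and the MT1 genes with large differences, and Panc1 shares deep blue with the 3 MiaPaca2 arrays for MTAP and CDKN2A.

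CDKN2A encodes inhibitors of the kinases that open the cell cycle and of MDM2, and MTAP, its neighbour on chromosome 9, salvages methylthioadenosine. A homozygous deletion that takes in CDKN2A is known in PANC-1 and MIA PaCa-2. CDKN2A stood at -3.21 and -3.26 in Panc1 and at 1.61 and 0.94 in HT29, a difference of -4.51 (SE 0.282, limma, adjusted p = 1.23e-05). All 11 features agreed, from -4.93 to -3.33. The 3 MiaPaca2 arrays lay from -3.87 to -3.32 and every other line above 0. MTAP stood at -2.73 and -2.82 against 1.63 and 1.22, a difference of -4.20 (SE 0.234), but its 3 features disagreed. They differed by -8.30, -4.35 and 0.04, and the last lay at -0.27 and -0.14 in Panc1 while the MiaPaca2 arrays were at -4.08 to -2.89. CDKN2B, the inhibitor gene on the other side of CDKN2A, stood at -1.21 on both Panc1 arrays and differed by -1.53, with -2.98 on 1 feature and -0.08 on the other. KLHL9, 7 protein-coding genes before MTAP in the RefSeq order, differed by -1.45, and DMRTA1, the next gene after CDKN2B, was higher by 1.75. CAAP1, 7 genes after MTAP, differed by -2.67, and ELAVL2 and TUSC1 were not called. SMAD4, the shared partner of TGF-beta signals that pancreatic cancers often lose, was higher in Panc1 by 1.22, with -0.49 and -0.15 against -1.56 and -1.54 (limma, adjusted p = 0.008). Without Panc1 array 4 that call was lost at 1.05 (limma, adjusted p = 0.0673). MYC, a growth regulator, differed by -0.16 and was not called (limma, adjusted p = 0.618).

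The remaining inhibitors and p53 targets ran in both directions. Of the 35 measured genes of that list, which includes CDKN2A, CDKN2B and MTAP, 14 were lower and 8 higher, with a median of -0.08. Without Panc1 array 1 the counts were 9 lower and 5 higher, and without Panc1 array 4 they were 8 lower. The median was -0.13 and -0.35 without these arrays, -0.21 without HT29 array 2, -0.35 without HT29 array 4 and -0.29 with quantile normalization. CCNG1, a cyclin that p53 induces, differed by -3.00 and SESN1, a stress sensor of the same pathway, by -2.26. The death effector BAX differed by -1.75. GADD45B, TNFRSF10B and PERP were higher by 2.20, 1.74 and 1.58. Of 39 proliferation genes, 12 were higher and 3 lower. The kinetochore genes CENPF, at 1.99, and BUB1, at 1.54, and the spindle gene DLGAP5, at 1.5, were among the former and NUSAP1, a spindle protein, at -1.77, among the latter. The 12 fell to 5 without Panc1 array 1 and to 7 without Panc1 array 4, and the 3 ran from 1 without HT29 array 2 to 5 without HT29 array 4.

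KRAB zinc finger proteins are repressors that bind DNA through arrays of zinc fingers and silence transposable elements, and their genes stand in clusters, most of them on chromosome 19. The list held 52 measured genes of such clusters, of which 25 were higher in Panc1 and none lower, with a median of 0.53. With quantile normalization the counts were 21 and 2, and without HT29 array 4 they were 22 and 2, with a median of 0.33. Over all 479 measured genes with a ZNF symbol the shares were 24% higher and 12.5% lower, against 21.4% and 15.9% of all genes. The list was chosen with earlier results of these data known, so its counts speak for the listed genes only. ZNF582 stood at 0.78 and 0.75 on the Panc1 arrays and at -4.34 and -4.18 on the HT29 arrays. The difference was 5.03 (SE 0.228, limma, adjusted p = 3.81e-06), with Panc1 slightly above the reference and HT29 far below. ZNF529 stood at -0.58 on both Panc1 arrays and at -5.08 and -5.38 in HT29, a difference of 4.65. ZNF256 and ZNF71 differed by 4.36 and 4.25. ZNF134, ZNF461, ZNF606, ZNF571 and ZFP82 followed at 3.90, 3.75, 3.53, 3.49 and 3.46. These genes share long runs of finger sequence, so features may read more than 1 of them.

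The windows of ZNF582 (chr19:56393485-56393784, minus strand) and ZNF256 (chr19:57947657-57947956, minus strand) are shown from the same RefSeq table because they carried large differences in the list. Capitals mark the CG dinucleotides, which DNA methylation targets in promoters.
ZNF582: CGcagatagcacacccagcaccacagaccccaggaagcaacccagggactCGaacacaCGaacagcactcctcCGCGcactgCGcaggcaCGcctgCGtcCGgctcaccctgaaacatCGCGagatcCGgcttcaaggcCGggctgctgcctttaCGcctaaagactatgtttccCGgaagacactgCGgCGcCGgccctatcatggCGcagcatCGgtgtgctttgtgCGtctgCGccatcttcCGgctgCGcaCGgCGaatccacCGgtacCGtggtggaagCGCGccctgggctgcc
ZNF256: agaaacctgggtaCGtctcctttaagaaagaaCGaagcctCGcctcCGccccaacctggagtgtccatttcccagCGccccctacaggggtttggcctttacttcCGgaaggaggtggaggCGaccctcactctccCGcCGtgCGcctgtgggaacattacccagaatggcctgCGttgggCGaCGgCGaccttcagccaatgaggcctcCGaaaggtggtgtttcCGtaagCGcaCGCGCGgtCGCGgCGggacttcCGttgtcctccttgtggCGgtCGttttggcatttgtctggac
The ZNF582 window held 30 CG and the ZNF256 window 26, and 30.1% of all 35116 windows held 26 or more. The 31 windows of listed genes called higher came from 22 genes and had a median of 25 CG. The 22 windows of listed genes not called came from 21 genes and had a median of 13.5. All windows had a median of 14, and the difference was not tested. Methylation was not measured.

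Protocadherins are cadherin-like adhesion proteins whose clustered genes on chromosome 5 mark single neurons. Of 28 measured members, 17 were higher in Panc1 and 1 lower, with a median of 1.15. PCDHB2 stood at 1.56 and 1.52 in Panc1 and at -2.91 and -3.19 in HT29, a difference of 4.59 (SE 0.216, limma, adjusted p = 4.2e-06). PCDHB6 stood at 3.39 and 3.34 against 0.15 and -1.63, a difference of 4.11. PCDHB8 and PCDHB16 differed by 3.07 and 2.74. Of all 19 measured genes of the beta cluster, 12 were higher and none lower, against 3 of 7 in the alpha cluster and 2 of 17 in the gamma cluster, and the difference between clusters was not tested. Outside the clusters PCDH18 was higher by 3.15 and PCDH9 by 2.71, while PCDH1 differed by -0.84. The features disagreed for both, at 0.24 and 5.18 for PCDH9 and at -1.84 and 0.15 for PCDH1. The beta genes are close paralogs, and their features may read each other.

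**Figure D3:**
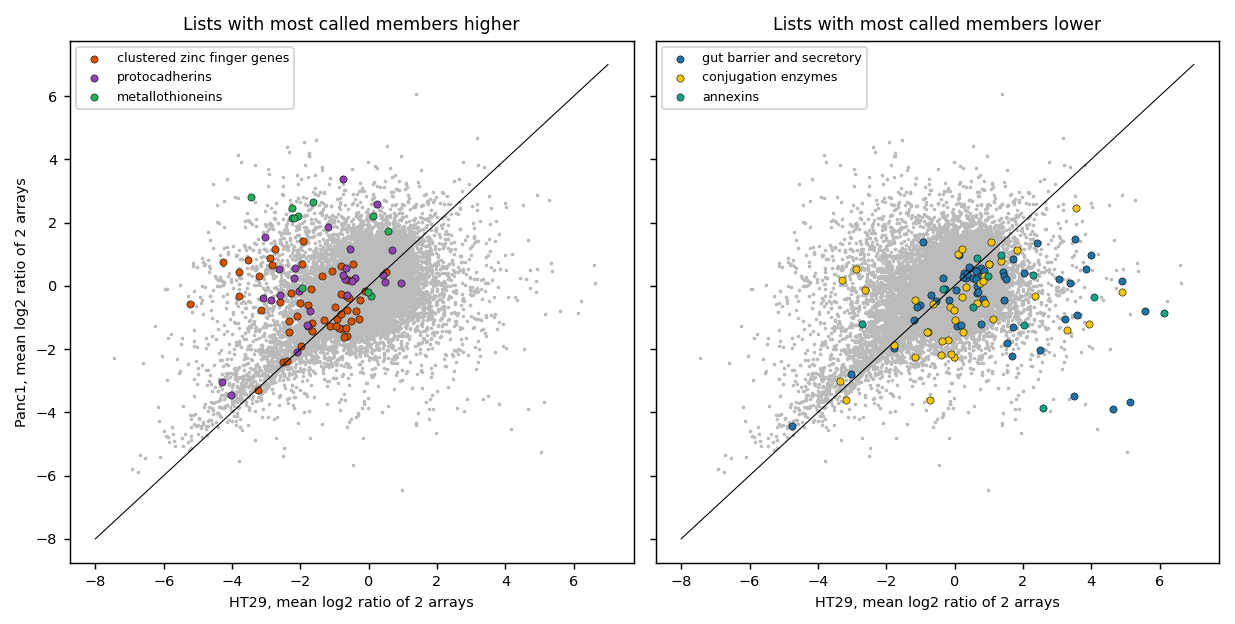
Mean log2 ratio to the reference in HT29 (horizontal axis) and Panc1 (vertical axis), each over 2 arrays, for all genes (grey) and for 6 lists (colours), with the line of equal values. Metallothioneins, clustered zinc finger genes and protocadherins lie mostly above the line, and gut barrier genes, conjugation enzymes and annexins mostly below it.

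Genes of gut barrier and secretion were called lower in Panc1 more often than higher. Of 58 measured, 21 were lower, 2 higher and 35 not called, with a median of -0.77. Besides TSPAN8, LYZ, AGR3 and SPINK1, described above, DPP4, a brush border peptidase, differed by -4.54 and LCN2, an iron-sequestering antibacterial protein, by -4.50. CEACAM6, a surface glycoprotein of colon cells, differed by -4.27. The goblet cell peptide TFF3 differed by -2.99, REG4 by -3.28 and the mucus chaperone AGR2 by -2.05. ANPEP, another brush border peptidase, was higher in Panc1 by 2.29, although its features gave 0.04 and 4.54. Without HT29 array 2 the median was -0.28 and the count lower was 20, and without any single array 1 gene was higher.

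Annexins followed the same direction. Of 11 measured, 6 were lower and 1 higher, with a median of -1.22, which was -0.77 without HT29 array 2 and -2.07 without HT29 array 4. ANXA13, an intestine-restricted member, stood at -0.39 and -0.33 in Panc1 and at 4.93 and 3.21 in HT29, a difference of -4.43. ANXA9 differed by -3.25 and ANXA4 by -1.94, and ANXA6 was higher by 1.5. Among 19 S100 calcium-binding genes, 4 were lower and 1 higher. S100P, a surface-signalling member known as raised in many pancreatic cancers, was low in Panc1, at -3.28 and -3.60, and high in HT29, at 1.97 and 1.73. Its difference was -5.29 (SE 0.227, limma, adjusted p = 3.41e-06). S100A14 and S100A10 differed by -3.55 and -1.54, and S100A3 by 1.56. Without HT29 array 2 the S100 counts were 3 in each direction, and without HT29 array 4 they were 7 lower and 1 higher.

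Mucins are the large glycoproteins of mucus and of the cell surface. Of 16 measured, 2 were called in each direction (12.5% each), against 21.4% higher and 15.9% lower of all genes. The membrane mucins MUC13 and MUC20 differed by -4.64 and -3.38. MUC1, another membrane mucin, stood at 0.04 and 0.06 in Panc1 and at -2.32 and -2.80 in HT29, a difference of 2.61. MUCL1, a small mucin-like gene, differed by 0.96, and its call was lost under quantile normalization, with the 3 MiaPaca2 arrays as one group, with a replicate block and without any single array (limma, adjusted p from 0.0594 to 0.169).

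The enzymes that build O-linked chains split within families. Of 52 measured, 13 were higher and 13 lower (25% each), against 21.4% and 15.9% of all genes, and the median was 0.00. Without Panc1 array 4 the counts were 7 and 9. Chains start with a GALNT enzyme, and here GALNT3, at -8.69, and GALNT12, at -2.57, were lower while GALNT18, GALNT16, GALNT2 and GALNT10 were higher by 4.14, 3.69, 2.70 and 1.97. GALNT18 stood at 2.44 and 2.53 on the Panc1 arrays and at -1.77 and -1.55 on the HT29 arrays, without overlap. Branching enzymes also parted, with GCNT3 at -5.83 and GCNT2, which makes the I blood group antigen, at 3.23. Fucosyltransferases, several of which make blood group H and Lewis antigens, parted too. FUT1 differed by -3.75 (SE 0.218), FUT3 by -2.58 and FUT2 by -1.28. FUT9 and FUT6 were higher by 0.86 and 0.75, but features of both ran in opposite directions.

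Of 34 measured tetraspanins and four-pass relatives, 7 were higher (20.6%) and 6 lower (17.6%), near the 21.4% and 15.9% of all genes. TM4SF18 stood at 4.29 and 4.93 in Panc1 and at -1.53 and -1.55 in HT29, while TM4SF4, a close relative, stood at 0.55 and 0.77 against 6.86 and 6.31. TSPAN5 was higher by 2.53 and TSPAN4 by 2.51. After quantile normalization the counts were 5 higher and 9 lower, and without Panc1 array 1 there were 6 higher and 3 lower.

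Transcription factors of gut and pancreas were lower more often than higher. Of 41 measured, 17 were lower and 7 higher, with a median of -0.63. KLF5, a regulator of crypt proliferation, stood at -2.21 and -2.23 in Panc1 and at 3.34 and 3.19 in HT29, a difference of -5.49 (SE 0.21). GATA6, an endoderm regulator, differed by -4.05, ISL1 by -3.23, HNF4G by -3.08 and SPDEF, a goblet cell regulator, by -2.53. GATA5, another GATA factor of endoderm, went the other way. It stood at 3.62 and 3.88 in Panc1, at -1.65 and -1.07 in HT29 and no higher than -0.21 on the 8 arrays of other lines, a difference of 5.11. BARX1, a homeobox gene of the developing stomach, was higher by 3.66 and GATA4 by 1.80. FOXA2 was higher by 1.53 where FOXA1 was lower.

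HOX genes give cells their position along the body axis and stand in 4 clusters. Of 29 measured, 10 were higher in Panc1 and 3 lower. HOXC9 stood at 2.19 and 2.03 in Panc1 and at -3.82 and -2.77 in HT29, a difference of 5.41 (SE 0.335, limma, adjusted p = 1.17e-05). HOXC13 was higher by 3.61, HOXC8 by 2.59, HOXC10 by 2.13 and HOXC11 by 0.83, whereas HOXC4 differed by -1.67. In the B cluster HOXB2 was higher by 2.19 and HOXB4 by 1.47 over features at 0.15 and 2.79, and HOXB8 and HOXB9 differed by -1.76 and -1.95. The called members of the D cluster, HOXD1, HOXD3 and HOXD8, were higher by 1.81, 1.36 and 0.88. Without HT29 array 4 the counts were 8 and 1.

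Enzymes that handle aldehydes and conjugate drugs and bile pigments were called lower in Panc1 more often than higher. Of 8 aldo-keto reductases, 4 were lower, none was higher and the median was -1.19. AKR1B10, which reduces retinal and lipid aldehydes, stood at -2.47 and -2.78 in Panc1 and at 3.55 and 2.71 in HT29, a difference of -5.76 (SE 0.303, limma, adjusted p = 5.41e-06). The steroid reductase AKR1C3 differed by -5.33 and AKR1C1 by -2.61, and features of these paralogs may read each other. AKR7A3 differed by -1.64. Of 19 aldehyde dehydrogenases, 5 were lower and 2 higher. ALDH1A1 stood at -3.51 and -3.62 against 3.23 and 3.45. It was also high in MiaPaca2, at 2.83 and 3.93 on the arrays with the DMSO label. ALDH3A1, ALDH2 and ALDH3A2 differed by -4.48, -2.75 and -2.60, while ALDH1A3, another retinal dehydrogenase, was higher by 1.56.

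Of 40 conjugation enzymes, 18 were lower and 5 higher, with a median of -0.68, and 13 and 3 without Panc1 array 1. UGT1A6 and UGT1A8, which attach glucuronic acid to phenolic compounds, differed by -5.16 and -5.07, but isoforms of that locus share most of their sequence. GPX2, the glutathione peroxidase of gut epithelium, stood at -1.44 and -1.38 in Panc1 and at 3.30 and 3.25 in HT29, a difference of -4.68. NQO1, a quinone reductase, differed by -2.19. The glutathione transferases GSTM1 and GSTM3 were higher by 3.49 and 3.41. GSTM1 stood at 0.13 and 0.27 in Panc1 and at -3.15 and -3.43 in HT29. Cytochrome P450 genes were called in both directions, 10 higher and 8 lower of 36, but 6 and 9 with quantile normalization, 6 and 8 without Panc1 array 1, and 6 and 7 without Panc1 array 4 or HT29 array 2. With all arrays the shares were 27.8% higher and 22.2% lower, against 21.4% and 15.9% of all genes. CYP3A4, a main drug-oxidising enzyme of gut and liver, and CYP3A7, its fetal liver relative, differed by -4.92 and -5.13. Features of these paralogs may read each other. CYP1B1, which oxidises steroids, was higher by 3.16 and CYP26B1, which clears retinoic acid, by 3.50, although its 2 features gave 0.96 and 6.04.

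**Figure D4:**
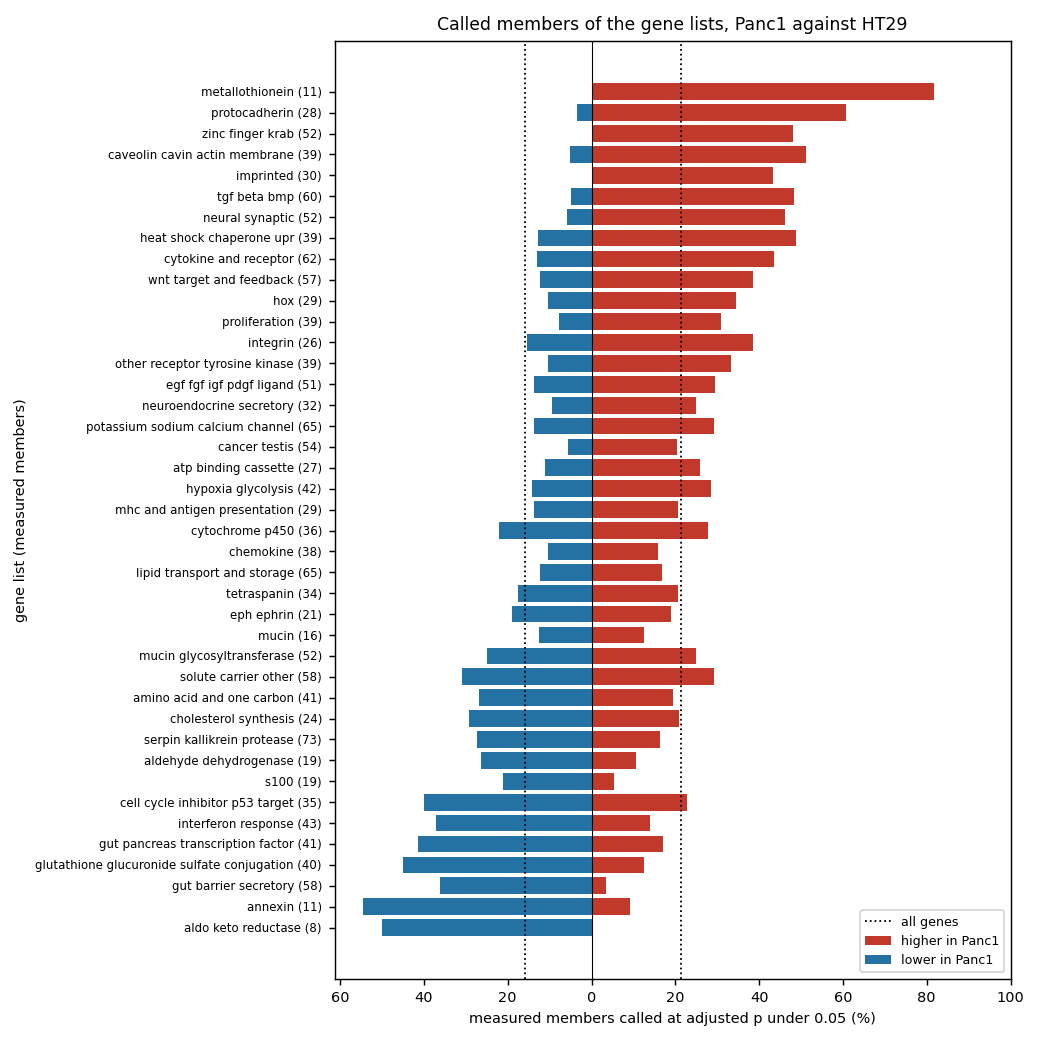
Share of measured members (horizontal axis, in percent) called higher in Panc1 (red, to the right) and lower (blue, to the left) in each gene list (vertical axis, with the number measured), with dotted lines at the shares of all genes, 21.4% and 15.9%. Metallothioneins, protocadherins and genes of caveolae and the actin membrane skeleton reach furthest to the right and annexins, aldo-keto reductases and conjugation enzymes to the left, while lists such as Eph receptors and tetraspanins stay near the lines.

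TGF-beta family signals pass from ligands kept latent in the matrix through receptor kinases to SMAD proteins, with secreted antagonists and inhibitory SMADs as brakes. Of 60 measured genes, 29 were higher in Panc1 and 3 lower, with a median of 0.75, or 0.50 with quantile normalization. Among ligands, BMP6 stood at 2.30 and 2.43 in Panc1 and at -2.86 and -3.19 in HT29, a difference of 5.39, in parallel with INHBB. BMP4 ran opposite, at -2.82 and -2.58 against 2.48 and 2.50, a difference of -5.19 (SE 0.226, limma, adjusted p = 3.52e-06). BMP2, a close relative of BMP4, differed by -2.98. LTBP1 and LTBP2, which store latent TGF-beta in the matrix, were higher by 5.14 and 3.22. The ligands TGFB1, TGFB2 and TGFB3 were higher by 1.35, 1.27 and 2.33, and GDF15, a stress-induced ligand, by 2.32. Among receptors TGFBR1 was higher by 0.93, ACVR1 by 1.62 and BMPR1B by 1.12, the last with features from -0.08 to 3.07. Among transducers SMAD3 was higher by 1.79 and SMAD9 by 2.01, and the inhibitory SMAD6 differed by -1.90. ID1, ID3 and ID4, targets of BMP signals, were higher by 2.07, 2.23 and 2.09. The antagonists NOG, CHRD and GREM1 were higher by 1.74, 0.86 and 0.82. Without HT29 array 4 and with quantile normalization the count lower was 5.

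Wnt proteins bind FZD receptors and stabilise beta-catenin, which switches on AXIN2, RNF43 and other genes that damp the signal. HT29 is known to carry a truncated APC, a protein of the complex that destroys beta-catenin. Of 57 measured genes, 22 were higher in Panc1 and 7 lower, with a median of 0.33, or 0.16 with quantile normalization and 0.67 from the most variable feature of each gene. The lower genes included feedback and target genes. RNF43, a ligase that removes FZD receptors, differed by -3.46, AXIN2, a scaffold of the destruction complex, by -2.71, SP5 by -2.51 and ASCL2, a stem cell factor of the crypts, by -2.50. Of other known targets, CCND1 and CD44 were higher by 1.44 and 2.50, with CD44 features from 0.02 to 3.04. The larger differences among called ligands and receptors were WNT5B at 3.43, WNT3 at 3.25, WNT5A at 2.68, FZD2 at 3.54 and FZD9 at 3.36. FZD2 stood at 1.00 on both Panc1 arrays and at -2.53 and -2.55 in HT29. Secreted and surface inhibitors were also among the called genes. SFRP1 was higher by 4.37, from -4.18 and -4.31 in HT29 to about the reference level in Panc1, at -0.12 and 0.37. KREMEN2 was higher by 4.17 and DKK3 by 4.00, although the 5 features of DKK3 ran from -0.04 to 7.98.

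**Figure D5:**
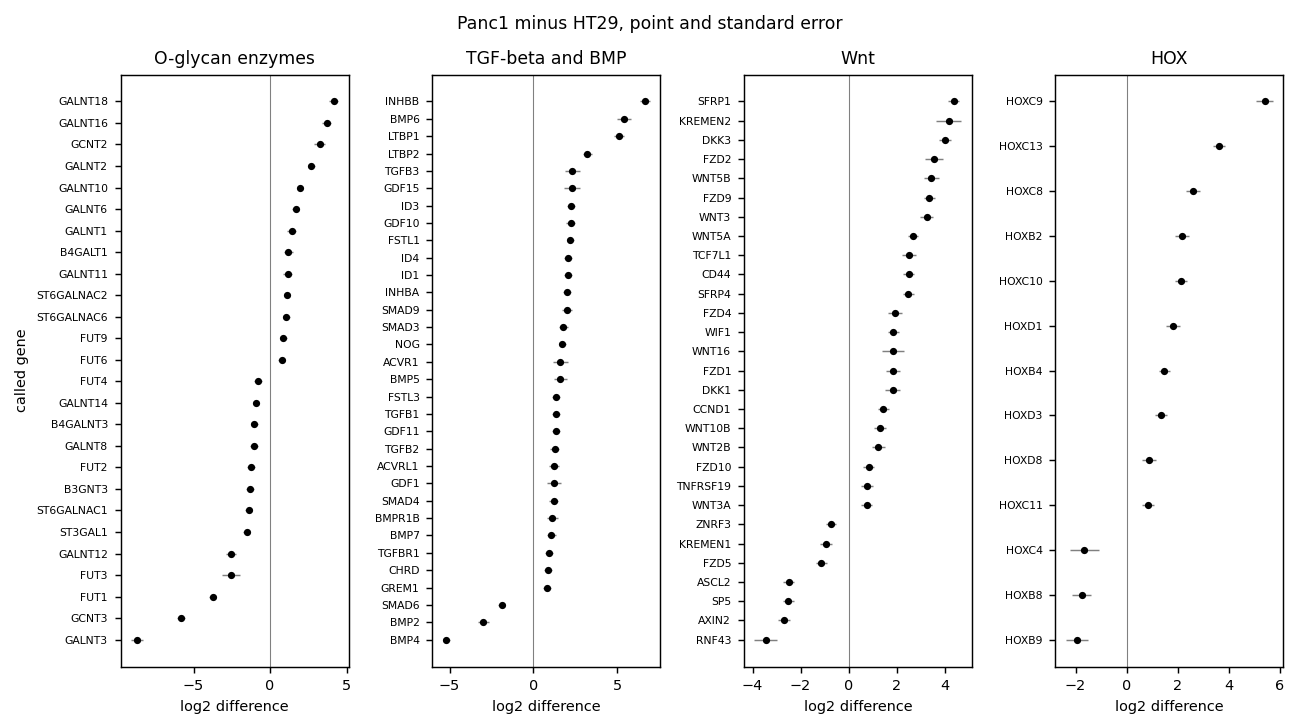
Difference between Panc1 and HT29 on the log2 scale (horizontal axis, point) with its standard error from limma (bar) for the called genes of 4 lists (vertical axis), O-glycan enzymes, TGF-beta and BMP genes, Wnt genes and HOX genes. Each list holds genes on both sides of 0, such as GALNT18 and GALNT3, BMP6 and BMP4, SFRP1 and RNF43, and HOXC9 and HOXB9.

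Growth factor ligands and binding proteins were called higher in 15 (29.4%) and lower in 7 (13.7%) of 51, against 21.4% and 15.9% of all genes. NRG2, a ligand of ERBB receptors, was higher by 5.32, but its 2 features gave 1.93 and 8.71. MDK, a heparin-binding growth factor, stood at 1.46 and 1.20 in Panc1 and at -3.07 and -3.51 in HT29, a difference of 4.62. VEGFC, which drives lymphatic vessel growth, was higher by 4.32 and IGFBP7, a secreted binding protein, by 4.33. FGF9, TGFA and BTC differed by -3.40, -3.09 and -2.53. Among 39 receptor tyrosine kinases, 13 were higher and 4 lower. MERTK and AXL, which bind GAS6, were higher by 4.24 and 4.55. AXL stood at 1.09 and 1.93 against -2.93 and -3.16. FGFR1 was higher by 2.46 and KIT by 1.96, while FGFR2 differed by -1.90 and ERBB3 by -1.20. KIT lay below the reference in both lines, at -1.88 and -1.52 in Panc1. The 2 features of FGFR1 gave 0.79 and 4.13. Of 21 Eph receptors and ephrins 4 were called in each direction (19% each), near the 21.4% and 15.9% of all genes. Among them were EPHB1 at 2.70, EPHA5 at 2.00, EPHA1 at -3.26 and EFNB1 at -1.41. The Eph counts were 2 higher and 3 lower without Panc1 array 4 or HT29 array 2, and 3 and 2 without HT29 array 4.

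Cytokines and their receptors were higher in 27 and lower in 8 of 62 measured, with a median of 0.44, or 0.29 with quantile normalization. Receptors that signal with the shared subunit gp130 were among the larger differences. LIFR stood at 0.89 and 1.37 in Panc1 and at -3.54 and -4.03 in HT29, a difference of 4.91 (SE 0.28, limma, adjusted p = 8.3e-06). IL6R was higher by 3.79, IL27RA by 3.84 and OSMR by 2.85. That group was picked after its values were seen, and 5 of its 6 measured members were called higher. IL1RL1, the receptor for IL-33, was higher by 3.72, IL11 by 3.06 and CSF1, the growth factor of macrophages, by 3.14. IL20RA, of the epithelial IL-20 family receptors, stood at 0.17 and 0.92 in Panc1 and at 4.83 and 5.03 in HT29, a difference of -4.38. IL22RA1, of the same receptor family, differed by -1.76. The decoy receptor IL1R2 differed by -3.97 and the death ligand TNFSF10 by -2.45.

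Chemokines were called higher in 6 (15.8%) and lower in 4 (10.5%) of 38, against 21.4% and 15.9% of all genes. After CCL2 came CCL5, which attracts T cells, at 2.77, and CCL27 at 1.90. CXCL11, an interferon-induced chemokine, differed by -2.27, with HT29 at 2.97 and 0.86, and was lost without Panc1 array 1 (limma, adjusted p = 0.0573). Without HT29 array 4 the chemokine counts were 5 higher and 6 lower, and without any one of the other 3 arrays 2 were lower. Interferon-stimulated genes were lower in 16 and higher in 6 of 43, with a median of -0.47, or -0.30 without HT29 array 2. IFI27 differed by -3.27, BST2, which tethers virions, by -3.02, IFI44 by -2.96 and OAS1 by -2.23. The 3 membrane genes IFITM1, IFITM2 and IFITM3 were higher by 2.08, 2.60 and 3.15, and are close paralogs. The count lower was 9 without Panc1 array 1 and 10 without Panc1 array 4. Of 29 genes of antigen presentation 6 were higher (20.7%) and 4 lower (13.8%), near the 21.4% and 15.9% of all genes. TAP1, a peptide pump of the endoplasmic reticulum, stood at 2.15 and 2.20 against -0.96 and -0.93, a difference of 3.12. HLA-G and HLA-C were higher by 2.21 and 2.01, MICB, a stress-induced ligand of natural killer cells, by 1.68, and PSMB8, a proteasome subunit, differed by -1.34. Features ran from 0.41 to 3.57 for MICB and from 0.34 to 2.39 for HLA-C. The 4 lower became 2 without Panc1 array 1, Panc1 array 4 or HT29 array 2.

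Genes of caveolae and the actin membrane skeleton were higher in 20 and lower in 2 of 39, with a median of 0.89. Some of these genes belong to the mesenchymal programme. CAV1, the coat protein of caveolae, stood at 0.82 and 1.55 in Panc1 and at -4.06 and -4.43 in HT29, a difference of 5.43, and CAVIN3 was higher by 3.46. CCN1 and CCN2, matricellular targets of YAP, were higher by 4.89 and 3.07. AHNAK2, a large scaffold protein, was higher by 4.62. Of 26 integrin subunits 10 were higher and 4 lower. ITGA2 was higher by 3.48, ITGB3 by 3.07 and ITGAV by 2.13, and ITGB6, an epithelial partner of ITGAV, differed by -3.22.

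Neural and synaptic genes were higher in 24 and lower in 3 of 52, with a median of 0.61. NLGN1, a postsynaptic adhesion protein, stood at 2.11 and 1.97 in Panc1 and at -4.36 and -2.64 in HT29, a difference of 5.54. The 8 arrays of other lines all lay at or below -3.56. MAP1B, a microtubule protein of axons, was higher by 4.82, ROBO1, a guidance receptor, by 4.52 and NES, an intermediate filament of progenitor cells, by 3.71. The 2 features of ROBO1 gave 1.715 and 7.3165. Neuroendocrine and peptide hormone genes were higher in 8 (25%) and lower in 3 (9.38%) of 32, against 21.4% and 15.9% of all genes. GAL, the neuropeptide galanin, stood at 0.59 and 0.92 against -4.81 and -4.92, a difference of 5.62, and CHGB, a granule protein, was higher by 4.26. DDC, which makes dopamine and serotonin, stood at -3.15 and -3.26 in Panc1 and at 3.16 and 1.46 in HT29, a difference of -5.51. The 3 lower in each of these lists became 1 without Panc1 array 1 for neural genes and 1 without HT29 array 2 for hormone genes.

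Ion channels were higher in 19 (29.2%) and lower in 9 (13.8%) of 65, against 21.4% and 15.9% of all genes. TRPM8, a cold-gated cation channel, stood at 2.69 and 3.63 in Panc1 and at -2.57 and -2.46 in HT29, a difference of 5.68. TRPV2 was higher by 4.19 and KCNN4, a calcium-activated potassium channel, by 3.94. KCNE3 and its partner KCNQ1, which together recycle potassium in the colon, were both lower, at -6.52 and -4.40. KCNE3 stood at -1.78 and -2.19 against 5.08 and 4.00. SCNN1A, a subunit of the epithelial sodium channel, differed by -3.47. Solute carriers were called higher in 17 and lower in 18 of 58, and without Panc1 array 4 in 11 and 15. SLC1A1, a glutamate transporter, differed by -4.93, SLC44A3 and SLC44A4, of the choline transporter-like family, by -4.41 and -4.39, SLC5A1, which takes up glucose in the gut, by -3.41 and SLC40A1, the iron exporter ferroportin, by -3.22. SLC26A2, a sulfate carrier, was higher by 3.04. Of 27 ABC transporters 7 were higher (25.9%) and 3 lower (11.1%), against 21.4% and 15.9% of all genes. ABCA3, a lipid transporter, was higher by 4.87, ABCB1, a drug efflux pump, by 1.81 and ABCG8 by 1.65, and ABCD3, of peroxisomes, differed by -2.36. The counts were 3 and 2 without Panc1 array 1 and 4 and 3 without HT29 array 2. The ABCG8 call was lost without Panc1 array 1 and without HT29 array 2 (limma, adjusted p = 0.0737 and 0.0852).

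Proteases and their inhibitors were lower in 20 and higher in 12 of 73, with a median of -0.32, or -0.18 without HT29 array 2 and -0.49 with quantile normalization. The kallikreins KLK11, KLK12, KLK10, KLK8 and KLK6 were lower, at -6.45, -5.21, -4.08, -3.65 and -3.30. KLK12 stood at -1.71 and -2.28 in Panc1 and at 3.17 and 3.26 in HT29. SERPINB5, an epithelial serpin, differed by -3.81. The lysosomal proteases CTSF, CTSL and CTSB were higher by 5.31, 2.75 and 2.02. CPM, a surface carboxypeptidase, was higher by 5.24 and HTRA1, a secreted serine protease, by 4.93. The count lower was 12 without Panc1 array 4 and 14 without Panc1 array 1.

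Metabolic lists were called in both directions. Of 65 genes of lipid transport and storage 11 were higher (16.9%) and 8 lower (12.3%), against 21.4% and 15.9% of all genes. With quantile normalization 14 were lower. The counts were 6 and 4 without Panc1 array 1, 8 and 4 without Panc1 array 4 and 10 and 5 without HT29 array 2. After ANGPTL4, APOE, a lipoprotein ligand, stood at 0.66 and 0.82 in Panc1 and at -3.10 and -3.14 in HT29, a difference of 3.86, and APOC1, its neighbour gene, was higher by 2.48. ACSL5, which activates fatty acids in gut cells, differed by -3.77 and APOH, a plasma apolipoprotein, by -2.86. APOH lay below the reference in both lines, at -3.00 and -2.02 in HT29. Of 24 genes of cholesterol synthesis and transport 7 were lower and 5 higher, but 2 and 1 without Panc1 array 1, 5 and 1 without Panc1 array 4 or HT29 array 2, and 4 and 7 without HT29 array 4. IDI1, an isomerase of the pathway, differed by -3.83, MSMO1 by -2.07 and STARD4 by -1.56, and the cholesterol exporter of lysosomes NPC1 by 1.59. The MSMO1 call was lost without Panc1 array 1, without either HT29 array and with a robust fit (limma, adjusted p from 0.054 to 0.12). Of 41 genes of amino acid and one-carbon metabolism 11 were lower and 8 higher, and 4 and 1 without either Panc1 array, 5 and 6 without HT29 array 2 and 9 and 2 without HT29 array 4. BCKDHB, of branched-chain breakdown, differed by -2.24, AHCY, which clears S-adenosylhomocysteine, by -1.90, SLC7A11, the cystine importer, by -1.79 and MAT1A by 1.62. MAT1A lay below the reference in both lines, at -1.56 and -1.77 in Panc1. The SLC7A11 call was lost without Panc1 array 1 and without either HT29 array (limma, adjusted p from 0.0521 to 0.117). Of 42 genes of hypoxia and glycolysis 12 were higher (28.6%) and 6 lower (14.3%), or 9 and 8 with quantile normalization. The shares of all genes were 21.4% and 15.9%. BNIP3, a mitophagy receptor, stood at -2.49 and -2.08 in Panc1 and at -7.50 and -7.38 in HT29, a difference of 5.16. ADM, a vasodilator peptide, was higher by 3.47, STC2 by 3.36 and LOX by 2.27, while the glucose carrier SLC2A1 differed by -1.45. LOX lay below the reference in both lines, at -1.91 and -1.75 in Panc1.

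Genes of heat shock and the unfolded protein response were higher in 19 and lower in 5 of 39, with a median of 0.72. HSPA2, a chaperone of germ cells, was higher by 3.19, SEL1L, of the degradation complex of the endoplasmic reticulum, by 2.13, HSPB1 by 1.77 and PDIA4 by 1.63. XBP1, a secretory stress factor, differed by -1.42. The 19 fell to 12 without Panc1 array 1, to 10 without Panc1 array 4 and to 12 without HT29 array 2, and the 5 to 1, 2 and 2. Of 30 imprinted genes, expressed from the copy of 1 parent, 13 were higher and none lower, with a median of 0.57. MEG3, a maternal noncoding RNA, was higher by 4.11, with features from 0.52 to 6.11. SGCE, a sarcoglycan, was higher by 3.70, PLAGL1, a zinc finger regulator, by 2.99, although its features gave 0.18 and 5.79, and GRB10, an adaptor of insulin receptors, by 2.52. With quantile normalization the imprinted counts were 10 and 1. Of 54 cancer-testis genes, normally silent outside germ cells, 11 were higher (20.4%) and 3 lower (5.56%), against 21.4% and 15.9% of all genes. With quantile normalization they were 5 and 6 and the median turned from 0.18 to -0.18, without Panc1 array 1 they were 5 and 1, and without HT29 array 4 they were 7 and 3 with a median of 0.11. Besides DDX43 only PRAME, at 2.98, passed 2, and it lay below the reference in both lines. TEX15 and FTHL17 differed by 1.61 and -1.61, and the TEX15 call was lost under 6 alternatives (limma, adjusted p from 0.063 to 0.21).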

How the data were processed

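Cell line RNA (Cy5) was hybridised with 1 shared whole human reference RNA (Cy3) to 2-colour arrays without dye swaps, per the labels. The authors deposited 1 value per feature and array, taken here as a log2 ratio of cell line over reference, since neither log base, nor normalization, nor direction was stated by the labels or the table. The scanner intensities were not used here. Of 45220 features, 31332 had 1 gene symbol in the platform annotation, 93 several and 13795 none. RefSeq (GRCh38.p14) matched 31291 of the former, and 41 kept the annotation's symbol. Features of a gene were averaged, and 0.17% of the values were exactly 0. No filter on low values was applied, so all measured members entered the fit.

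limma 3.58.1 in R 4.3.3 was fitted to 12 arrays in 9 groups, which share 1 estimate of the spread from the groups with several arrays (3 residual and 5.23 prior degrees of freedom). The contrast was Panc1 minus HT29, with Benjamini-Hochberg adjustment over 18334 genes and a threshold of 0.05. The number of arrays limits the precision. The fit was also run on simulated data with 200 changed genes and noise set by the spread within pairs of arrays. Such a run cannot show whether the arrays are separate cultures. Figures were drawn with matplotlib 3.10.9. The genes named are the 25 highest and 25 lowest called genes whose arrays do not overlap and whose features all differ in 1 direction. Coagulation, epithelial, mesenchymal and Y-linked genes and XIST were left out of these. Also named are the 4 largest called members of each of 41 lists, some fixed cancer genes, and further members that complete a list. The sets of ZNF symbols, protocadherin clusters and gp130 receptors were added after values were seen. Members and lists were chosen with earlier results of these data known, and some lists came from earlier work on them. Deviations of arrays that share a number in different groups correlated at -0.134, 0.144 and -0.0098, for numbers 1, 2 and 4. Each value rests on 1 pair of groups with 2 arrays each, and only number 4 is shared by Panc1 and HT29. Whether the numbers pair arrays can therefore not be decided.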

Additional observations from a re-analysis of the deposited data

How the results depend on the processing

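Over all genes the count of calls was 6831. It was 6853 with arrays shifted to a median of 0, 6372 after quantile normalization, 7461 from the most variable feature of each gene, 7479 from the 4 arrays alone, 6831 from the 6 arrays with the DMSO label, 5733 with the 3 MiaPaca2 arrays as one group, 6927 with a robust fit, 6837 with exact zeros as missing, 6674 without the 25% of genes of lowest SD and 5089 at a difference of at least 1. Panc1 and HT29 share only array number 4, and with a replicate block the count was 5520, of which 5209 were calls of the 6831 in the same direction. Leaving out 1 array gave 4135 (Panc1 array 1) to 6001 (HT29 array 4) calls, 2431 to 3387 higher and 1704 to 2614 lower, with fewer arrays in the fit and the lone array assumed to vary like the other groups. All 50 genes described first were called in every alternative. Each of 41 lists was sorted by whether more members were called higher, more lower or equal numbers. That stayed the same in 33 after quantile normalization and in 33 without HT29 array 2, the lowest numbers. Mucins, O-glycan enzymes and Eph genes had equal counts in the main fit, so a broken tie counted as a change. Of 82 list counts, 12 moved by over 1.5 times after quantile normalization, 10 with the replicate block and 6 with MiaPaca2 as one group. Leaving out Panc1 array 1, Panc1 array 4, HT29 array 2 and HT29 array 4 moved 26, 20, 17 and 13 of them. The cause was not tested. List medians also moved by over 1.5 times without the 25% of genes of lowest SD, a setting with fewer genes, to 1.12 for neural, 1.18 for integrin, 0.97 for imprinted, 0.89 for zinc finger, 0.77 for cytokine, -1.32 for gut barrier and -0.46 for p53 target genes, among those whose median is given. With the replicate block the medians were -0.42 for gut and pancreas factors, -0.40 for gut barrier genes, -0.29 for p53 targets and inhibitors and -0.20 for proteases. From the most variable feature the imprinted median was 0.88. MYC, which was not called, differed by 0.0295 without HT29 array 2 (limma, adjusted p = 0.947), by -0.36 without HT29 array 4 and by -0.16 with all arrays, and passed at -0.72 from its most variable feature (limma, adjusted p = 0.0495). Of the 50 genes described first, 39 rest on 1 feature.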

Other observations

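Features without a single gene symbol, 13888 in all, were fitted with the named ones. Of them 3307 were called between Panc1 and HT29 (23.8%), 1594 higher and 1713 lower, against 32.8% of the named features. The 28 measured genes with a MAGE symbol were called higher in 9 (32.1%) and lower in none, against 21.4% and 15.9% of all genes. Their median difference was 0.32. That set was picked after its values were seen.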
